A study of Mus musculus with 5 samples.

Results

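The cells described here are granulocyte-monocyte progenitors (GMP) at both ends of a score of mitotic genes, a high-scoring side labelled mitotic and a low-scoring side labelled non-cycling. They were chosen by measured values: in each of 3 GMP libraries, every cell was given the summed UMIs (unique molecules) of Ube2c, Cenpf, Ccnb1, Nusap1, Top2a and Mki67 per 10000 of its UMIs. The top 15% of a library formed the high-scoring side and the bottom 30% the low-scoring side. This took 4012 high-scoring and 8026 low-scoring cells from 26759 GMP cells, of 42104 cells in the whole series, and left 14721 middle cells on neither side. The series holds single-cell RNA of 5 droplet libraries from bone marrow of wild-type (WT) Balb/C mice aged 8 to 12 weeks, made with a chemistry that primes on the poly(A) tail and reads the 3' end. Every population was enriched on c-Kit with magnetic beads and then sorted. GMP (3 libraries) were gated as Lin-, c-Kit+, Sca-1-, CD34+ and CD16/32 high, CMP (common myeloid progenitors, 1 library) as the same but CD16/32 low, and LMPP (lymphoid-primed multipotent progenitors, 1 library) as Lin-, c-Kit+, Sca-1+, CD34+ and Flt3+. No treatment is named for any mouse. The GMP libraries are described as biological replicates but are not tied to separate animals. The p-values therefore speak only of how the difference between sides varied among these libraries. With 3 libraries, the spread of a single gene is borrowed in part from other genes. Very small p-values thus do not rest on a gene's own 3 differences alone.

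A dividing cell passes from a first gap phase through DNA replication and a second gap phase into mitosis, and different genes are transcribed at each step. E2F factors switch on replication genes before DNA synthesis. A MuvB complex with B-Myb and FoxM1, together with the CCAAT-binding factor NF-Y, switches on kinases, cyclins and spindle genes toward mitosis, and the anaphase-promoting complex then has many of their proteins destroyed. GMP give rise to neutrophils and monocytes, divide actively in the marrow, and are rich in transcripts of azurophil granule proteases.

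The GMP libraries held 112327644 to 137141095 deposited UMIs, and 19 to 30 cell barcodes were shared between any pair of them, 0.194% to 0.383% of a library. High-scoring cells carried more UMIs than low-scoring cells, with medians of 12957, 15971 and 19554 per cell against 9038, 10908 and 12747 in replicates 1, 2 and 3. The ratio was 1.48 ± 0.051 (SD, n = 3), and an exact paired permutation test gave p = 0.25 (two-sided), the smallest that 3 pairs allow. UMIs did not keep rising with the score. Cells above percentile 95 had medians of 10283, 13228.5 and 18614.5 UMIs, against 14164, 16969 and 20079 from percentile 85 to 95. In replicates 1 and 2 the medians above 95 were also below those of middle cells, 12003 and 14278. Mitochondrial UMIs took nearly the same share on both sides, 1.15% against 1.14% as the mean of library medians. Doublet calls, which were kept, made up 2.52% to 3.07% of high-scoring, 8.75% to 11.5% of middle and 3.45% to 4.82% of low-scoring cells. Elane and Prtn3, azurophil protease genes that mark GMP, were detected on both sides at the levels given with the lineage genes.

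The score ran over 1 continuous range in each library, with no gap at either border. The lowest score on the high side was 15.2, 16.8 and 15.1 per 10000 UMIs in replicates 1, 2 and 3, and the highest score just outside it was 15.2, 16.8 and 15.1 as well. Within 1 unit of that border, 138, 166 and 134 cells lay inside and 161, 201 and 142 outside. The highest score on the low side was 2.46, 3.56 and 2.93. A score of 0 was found in 830, 434 and 336 cells, or 9.10%, 4.43% and 4.29% of a library, all on the low side. How many UMIs of these genes in the other low-scoring cells came from free RNA in the droplets was not tested. Ties among cells at 0 were to be broken by Mcm2, Mcm5 and Pcna, but all of these cells fell there without it. Among the genes that chose the cells, Top2a, the topoisomerase that untangles sister chromatids, stood at 536, 613 and 527 CPM (UMIs scaled to a common total of 1000000 per sum) on the high side and at 50.3, 85.1 and 70.8 CPM on the low side. These values describe the choice, and the 9 genes of the rule are left out of every count below.

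**Figure D1:**
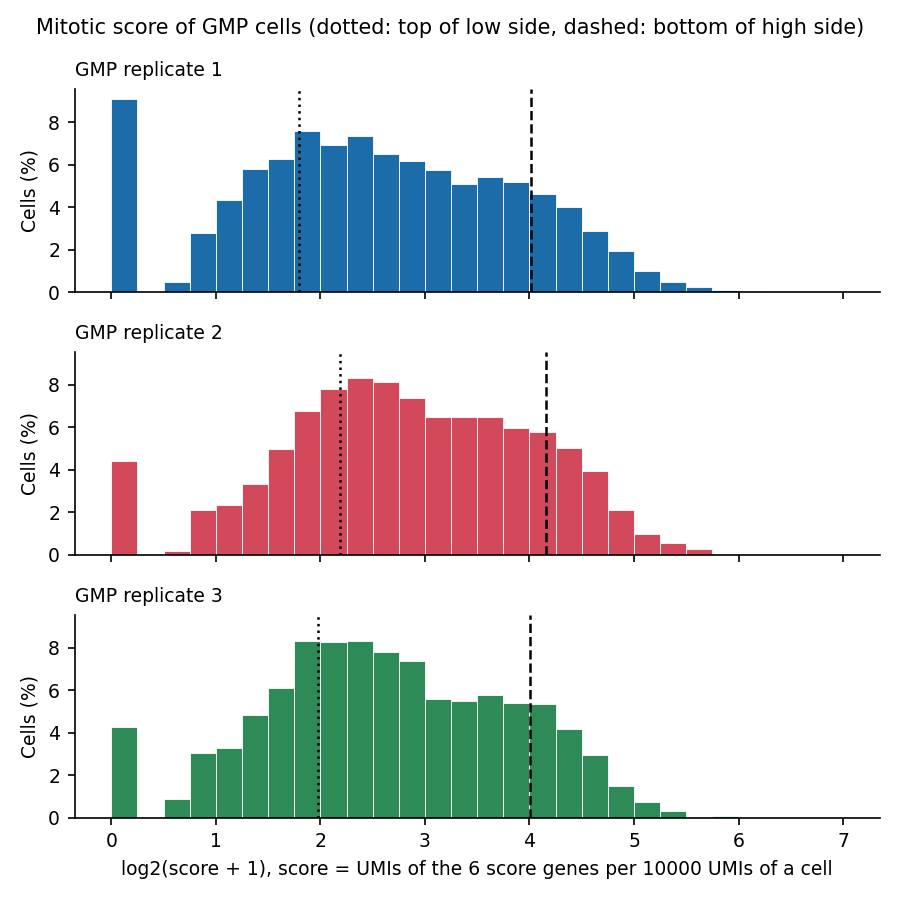
Share of cells (%) by log2 of the mitotic score plus 1 in the 3 GMP libraries, 1 panel each, with the borders of the low and high sides marked. Scores form 1 broad range in every library, and the bar at 0 holds 9.10%, 4.43% and 4.29% of cells.

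UMIs were summed per library and side, and both sides of a library were compared as a pair with edgeR's quasi-likelihood test and Benjamini-Hochberg adjustment. Of 13700 genes tested, 3035 (22.2%) were higher and 2765 (20.2%) lower in high-scoring cells at an adjusted p under 0.05, with a median log2 difference of 0.01 over all genes. Most of these differences were small: 598 genes were called and over 1.5-fold higher, and 618 called and over 1.5-fold lower. Genes of mitosis are known to be transcribed together with the score genes, so their rise is a check of the label and not an independent result. The biological coefficient of variation left after pairing was 2.69%. By the DESeq2 Wald test 1227 genes were higher and 1393 lower, and without the pairing 625 and 422. With scaling by total UMIs 4049 were higher and 2073 lower, which moved the higher share of calls from 52.3% to 66.1%.

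Mitotic kinases and phosphatases rose as a group: 15 of 15 were higher, with a median log2 difference of 2.03. Plk1, the polo kinase that acts in mitotic entry and spindle assembly, stood at 68.5, 66.6 and 64.8 CPM in high-scoring cells of replicates 1, 2 and 3 and at 5.71, 7.38 and 6.30 CPM in low-scoring cells. The sides lay far apart in every library, with a log2 difference of 3.29 ± 0.06 (SE, adjusted p = 7.7e-38). Cdc25b, a phosphatase that activates the mitotic cyclin-dependent kinase, was at 20.8, 25.7 and 21.9 CPM against 1.46, 2.50 and 2.299 CPM (3.37 ± 0.10). Its libraries did not overlap between sides either. Aurka (Aurora A, at the spindle poles) differed by 2.46 ± 0.05 and Aurkb (Aurora B, at the centromeres) by 2.09 ± 0.05. Cdk1, the central mitotic kinase, rose less, with 122, 135 and 138 CPM against 37.9, 49.7 and 45.3 CPM (1.51 ± 0.04).

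All 12 mitotic cyclin and anaphase-promoting complex genes outside the score were higher (median 1.76). Ccnf, which encodes cyclin F, stood at 29.5, 35.6 and 36.7 CPM against 4.22, 6.19 and 6.33 CPM (2.54 ± 0.07). Espl1 encodes separase, the protease that opens cohesin rings, and was at 17.7, 16.4 and 16.2 CPM against 2.49, 3.91 and 3.63 CPM (2.24 ± 0.10). Ube2s, an enzyme that extends ubiquitin chains for the complex, was more abundant, at 332, 436 and 441 CPM against 145, 205 and 205 CPM (1.07 ± 0.03). None of these genes overlapped between sides. Cks1b, a small subunit of cyclin-dependent kinases, had a smaller difference of 0.85 ± 0.03.

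Spindle, kinesin and cytokinesis genes were higher in 33 of 33 cases (median 2.06), and most of the 10 largest rises were among them. Hmmr, a spindle-pole protein, stood at 119, 142 and 137.1 CPM against 8.47, 14.0 and 11.6 CPM (3.48 ± 0.05, adjusted p = 8.6e-41). Aspm, which acts at spindle poles, was at 39.3, 46.2 and 40.4 CPM against 2.72, 3.81 and 4.30 CPM (3.47 ± 0.08). Both were low in every low-scoring sum and high in every high-scoring one. Kif11, the motor that pushes spindle poles apart, was at 67.9, 84.5 and 77.9 CPM against 7.24, 11.0 and 10.7 CPM (2.93 ± 0.05). Ckap2l differed by 2.76 ± 0.05, Prc1, which bundles microtubules of the central spindle, by 2.68 ± 0.04, the cytokinesis kinesin Kif23 by 2.59 ± 0.06, the chromosome kinesin Kif4 by 2.57 ± 0.07 and Tpx2, an activator of Aurora A, by 2.53 ± 0.05. At the other end, Stmn1, a microtubule-destabilizing protein, was at 793, 833 and 749 CPM against 648, 692 and 672 CPM (0.18 ± 0.03, adjusted p = 1.3e-06). It was abundant on both sides, and its libraries did not overlap.

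Of 21 kinetochore and spindle checkpoint genes, 20 were higher and 1 did not pass (median 1.67). Cenpe, a motor that carries chromosomes to the spindle equator, was at 131, 136 and 131 CPM against 20.3, 24.4 and 24.4 CPM (2.47 ± 0.04). Cenpa, the histone variant that marks centromeres, stood at 274, 268 and 255 CPM against 46.8, 62.6 and 50.1 CPM (2.26 ± 0.05). Every high-scoring sum exceeded every low-scoring one for both. Birc5 (survivin) and Cdca8 (borealin), partners of Aurora B in the chromosomal passenger complex, differed by 2.05 ± 0.05 and 1.89 ± 0.04. Zwint, a kinetochore protein, was the member that did not pass, with 45.4, 52.2 and 47.2 CPM against 41.4, 43.8 and 48.1 CPM (0.06 ± 0.04, adjusted p = 0.27), and its libraries overlapped.

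**Figure D2:**
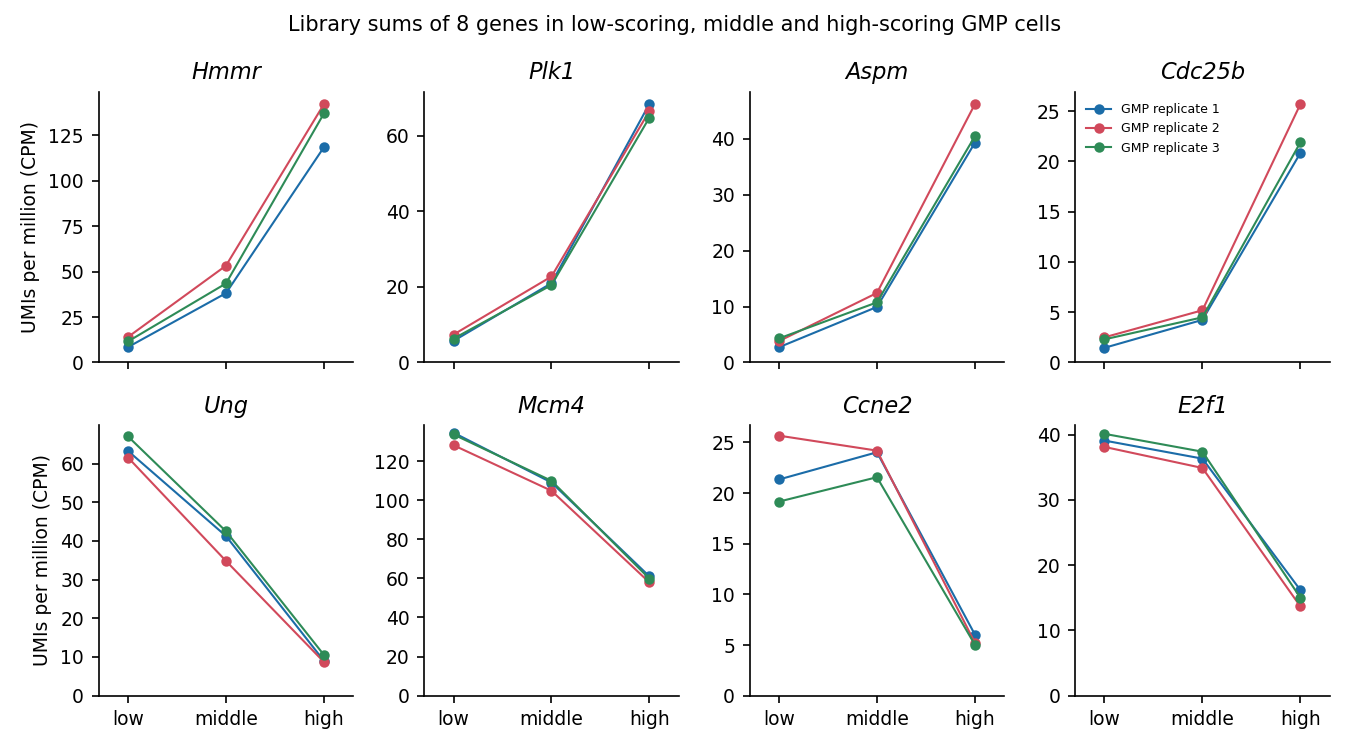
CPM of 8 genes in the low-scoring, middle and high-scoring sums of each GMP library, 1 line per library. Hmmr, Plk1, Aspm and Cdc25b climb to the high side in all 3 libraries, and Ung, Mcm4, Ccne2 and E2f1 fall to their lowest level there.

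Genes outside the 9 cell cycle lists were named by the same conditions, and the 10 largest rises among them ran from 1.11 to 2.28. Cdkn3, a phosphatase of cyclin-dependent kinases, stood at 80.0, 66.1 and 64.9 CPM against 12.5, 17.3 and 14.8 CPM (2.16 ± 0.07). Lockd, a long non-coding RNA transcribed downstream of Cdkn1b, was at 87.4, 89.7 and 78.3 CPM against 17.3, 22.2 and 18.4 CPM (2.08 ± 0.05). Neither gene overlapped between sides. Cdca2, Cdca3, Arhgap11a and Knstrn differed by 2.28, 1.58, 1.54 and 1.47. The beta-tubulin gene Tubb5, far more abundant, was at 975, 919 and 911 CPM against 373, 389 and 382 CPM (1.23 ± 0.03). Dbf4, the activator of a kinase that fires replication origins, differed by 1.23 ± 0.04, the centromere protein gene Cenpp by 1.13 ± 0.05 and Jpt1 by 1.11 ± 0.03.

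Because many of these genes rose together, the 250 bases before their start sites were searched on both strands for 3 motifs of cell cycle promoters. These were CCAAT, the letters bound by NF-Y, the cell cycle homology region (CHR) as TTTGAA or TTCGAA, and E2F sites as TTTCGCGC, TTTGGCGC, TTTCCCGC or TTTGCCGC. Promoters came from RefSeq on build GRCm38.p6, and 116 of the 161 named genes matched one. CCAAT was found in 9 of the 9 matched promoters among the 10 largest rises, against 36.9% of promoters of genes tested and 34.5% of all 27025 promoters, and the CHR in 2 of these 9. In the spindle list CCAAT was in 21 of 29 promoters and the CHR in 11 of 29, against 12.5% of genes tested and 17.4% of all promoters for the CHR. In the cyclin and anaphase-promoting complex list the CHR was in 6 of 11, but in the kinase list in 2 of 11. For DNA replication genes, an E2F site was found in 8 of 34 (23.5%), against 3.71% of genes tested and 1.91% of all promoters. CCAAT was also in 18 of these 34 (52.9%), so it was not limited to lists that rose. A match is a run of letters and not a measured site. The last 150 bases before the start are shown for 3 genes that rose and 2 replication genes that fell, 5′ to 3′ along the gene on GRCm38.p6, to let the letters be seen near the start. Capitals mark the motifs. On the other strand CCAAT reads as ATTGG, and the first form of the CHR reads as TTCAAA.
Hmmr (chr11:40733438-40733587, minus strand): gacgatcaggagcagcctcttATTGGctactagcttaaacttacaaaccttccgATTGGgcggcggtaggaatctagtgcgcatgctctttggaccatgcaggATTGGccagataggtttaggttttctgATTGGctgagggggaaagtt
Kif11 (chr19:37376232-37376381, plus strand): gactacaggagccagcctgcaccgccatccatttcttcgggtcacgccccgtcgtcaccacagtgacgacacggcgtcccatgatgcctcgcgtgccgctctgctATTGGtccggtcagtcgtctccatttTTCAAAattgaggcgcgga
Ckap2l (chr2:129297213-129297362, minus strand): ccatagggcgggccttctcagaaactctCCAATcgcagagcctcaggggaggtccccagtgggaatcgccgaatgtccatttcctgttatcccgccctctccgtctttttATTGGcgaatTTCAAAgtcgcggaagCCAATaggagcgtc
Mcm6 (chr1:128359706-128359855, minus strand): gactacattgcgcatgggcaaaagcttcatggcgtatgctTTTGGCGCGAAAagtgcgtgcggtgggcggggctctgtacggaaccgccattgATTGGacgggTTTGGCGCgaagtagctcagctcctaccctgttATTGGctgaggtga
Hells (chr19:38930840-38930989, plus strand): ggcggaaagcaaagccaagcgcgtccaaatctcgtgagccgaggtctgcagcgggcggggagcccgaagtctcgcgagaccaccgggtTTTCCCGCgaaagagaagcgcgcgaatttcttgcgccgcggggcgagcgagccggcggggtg

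In these windows Hmmr carries CCAAT letters at several places and no CHR, Kif11 and Ckap2l carry a CHR close to a CCAAT, Mcm6 carries both E2F and CCAAT letters, and Hells carries an E2F site alone.

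Chromatin genes rose by less. Of 24 condensin, cohesin and chromatin genes, 22 were higher and 2 did not pass (median 0.45). Ncapg, a condensin subunit that compacts mitotic chromosomes, was at 28.3, 37.8 and 32.4 CPM against 6.40, 10.8 and 9.90 CPM (1.80 ± 0.07). H2afx, the histone variant phosphorylated at DNA breaks, was at 542, 561 and 551 CPM against 149.8, 179 and 179.6 CPM (1.65 ± 0.03). Hmgb2, a DNA-bending protein, was at 1601, 1602 and 1592 CPM against 654, 756 and 681 CPM (1.14 ± 0.03). The sides were apart for all of them, whereas the abundant histone variant gene H2afz differed by only 0.27 ± 0.03.

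Replication-dependent histone genes were higher in 57 of the 60 tested (70 listed), with a median of 1.33. Most of their transcripts end without a poly(A) tail, so this capture counts them only in part, and near-identical copies may share reads. Hist1h1b, a linker histone gene, was at 613, 656 and 511 CPM against 144, 209 and 111 CPM (1.91 ± 0.05), and Hist1h2ap, an H2A gene, at 1119, 1037 and 1394 CPM against 433, 469 and 543 CPM (1.23 ± 0.03). The only lower one was Hist1h2bc, an H2B gene, at 36.6, 32.8 and 35.9 CPM against 54.5, 50.3 and 59.98 CPM (-0.71 ± 0.04, adjusted p = 4.0e-18). The libraries of each gene were apart between sides.

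**Figure D3:**
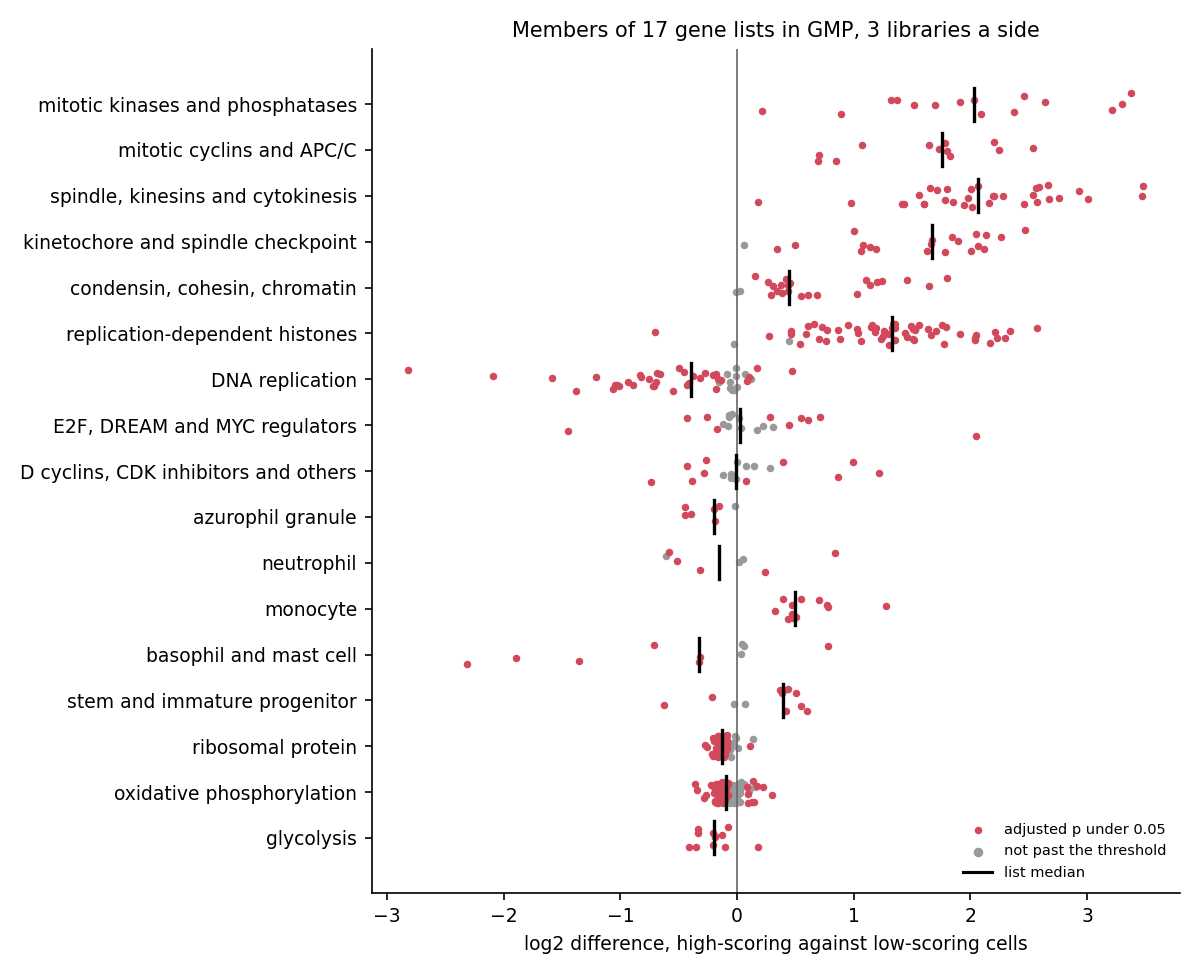
Log2 difference between high-scoring and low-scoring GMP cells for the tested members of 17 gene lists, red where the adjusted p was under 0.05, with each list's median as a bar. The 4 lists of mitotic kinases, cyclins, spindle and kinetochore genes centre between 1.67 and 2.06, DNA replication at -0.40 and the monocyte list at 0.49.

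Genes of DNA replication ran the other way, so their RNA, unlike that of histones, does not bear out the label non-cycling for the low side. Of 48 replication genes, 32 were lower in high-scoring cells, 4 were higher and 12 did not pass (median -0.40). Ung, the uracil-DNA glycosylase that clears uracil from DNA, stood at 8.996, 8.71 and 10.5 CPM against 63.3, 61.6 and 67.0 CPM (-2.82 ± 0.05, adjusted p = 8.7e-37). Ccne2, a cyclin that drives entry into DNA synthesis with Cdk2, was at 6.03, 5.23 and 5.03 CPM against 21.3, 25.7 and 19.2 CPM (-2.09 ± 0.08). Each was several times more abundant in low-scoring cells of every library. Among the genes of the replicative helicase, Mcm4 was at 61.0, 57.9 and 59.8 CPM against 134, 128 and 134 CPM (-1.21 ± 0.04) and Mcm6 at 119, 131 and 133 CPM against 227, 266 and 277 CPM (-1.07 ± 0.03). Hells and Uhrf1, which take part in keeping DNA methylated, differed by -1.05 ± 0.03 and -1.01 ± 0.05. The licensing factor Cdt1 and, from outside the list, the origin recognition subunit Orc6 differed by -0.90 ± 0.05 and -0.85 ± 0.05, and the nucleotide enzyme Dut by -0.72 ± 0.03. Rrm1, the large subunit of ribonucleotide reductase, was the main exception, at 83.7, 91.3 and 90.5 CPM against 54.0, 67.8 and 62.5 CPM (0.47 ± 0.04). The others that were higher, Rfc5, Tk1 and Tyms, differed by 0.17, 0.10 and 0.09. Without replicate 1 or replicate 3, 2 genes of the list were higher in place of 4.

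To see where along the score replication RNA was highest, cells were ordered by score and divided at the percentiles 30, 50, 70, 85 and 95. The replication list summed to 4273 ± 142 CPM (SD, n = 3) below percentile 30, 4763 ± 131 from 30 to 50 and 4721 ± 188 from 50 to 70. It then fell to 3979 ± 114 from 70 to 85, 3237 ± 45.2 from 85 to 95 and 2985 ± 85.1 above 95. It was lowest in the top band in all 3 libraries, and the low side lay nearer the peak than the high side did. Ung was highest below percentile 30 (63.9 CPM, then 60.8 and 40.0 in the next bands), and Ccne2 from 30 to 50 (28.6 CPM, against 22.1 below). Histones peaked later, from 70 to 85 in all 3 libraries, at a mean of 4702 CPM against 1656 below 30 and 4191 above 95. Mitotic kinases climbed through every band, from a mean of 186 to 801 CPM. On the low side the replication list was thus near its peak, while histones and mitotic kinases were at their lowest. The low side is called low-scoring throughout.

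**Figure D4:**
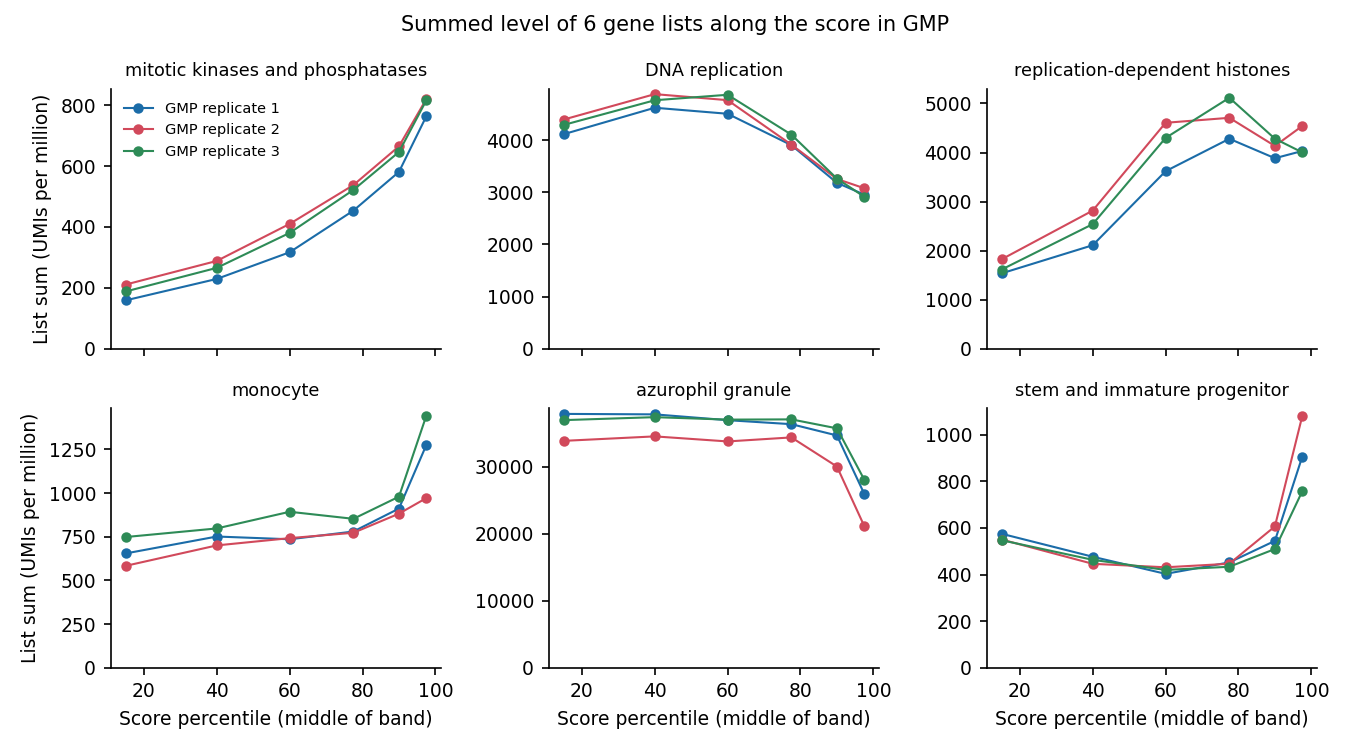
Summed CPM of 6 gene lists in 6 bands of the score, 1 line per GMP library. Replication genes are highest between percentiles 30 and 70 and histones between 70 and 85, whereas mitotic kinases, monocyte and stem genes reach their highest level in the band above 95.

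Foxm1, which encodes the FoxM1 activator of mitotic genes, was at 17.004, 17.4 and 19.1 CPM against 3.104, 4.56 and 4.66 CPM (2.04 ± 0.09), whereas E2f1 was at 16.2, 13.7 and 15.01 CPM against 39.1, 38.1 and 40.1 CPM (-1.45 ± 0.05). Both moved the same way in every library. Of 20 E2F, DREAM and MYC family genes tested, 6 were higher, 4 lower and 10 did not pass (median 0.02), beside 22.2% and 20.2% over all genes, and Tfdp1, a partner of E2F factors, differed by -0.26 ± 0.04.

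Of 18 D cyclin, G1 kinase and inhibitor genes tested, 5 were higher, 5 lower and 8 did not pass (median -0.01), beside 22.2% and 20.2% over all genes. Inhibitors of Cdk4 and Cdk6 were among the higher ones: Cdkn2d was at 41.0, 34.6 and 34.9 CPM against 15.7, 14.98 and 14.7 CPM (1.22 ± 0.05) without overlap, and Cdkn2c differed by 0.99 ± 0.13. Cdkn1b, the inhibitor p27, differed by 0.39 ± 0.06 and Ccng2, an atypical cyclin linked to arrest, by 0.86 ± 0.09. Ccnd2, a D cyclin, was lower at 120.1, 155 and 148 CPM against 152, 189 and 190.4 CPM (-0.39 ± 0.03), and its libraries overlapped, so this call comes from pairs within libraries. Ccnd1 (-0.74 ± 0.18), Rb1 (-0.43 ± 0.09), Cdkn1a (-0.26 ± 0.05) and Btg2 (-0.28 ± 0.05) were also lower, but Btg2 differed by 0.16 when sides were chosen within 10 classes of UMIs per cell. Cdk4, the kinase of D cyclins, had 379, 387 and 378 CPM against 364, 375 and 369 CPM (-0.01 ± 0.03, adjusted p = 0.79) and did not pass: its levels were higher in every high-scoring sum before scaling by TMM factors (trimmed mean of M values) and not after.

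The sides also differed in lineage genes. All 12 monocyte genes were higher in high-scoring cells (median 0.49), and 6 of 7 azurophil granule genes were lower (median -0.20). Irf8, a transcription factor of monocyte and dendritic cell fate, was at 293, 238 and 309 CPM against 192, 149.1 and 214 CPM (0.55 ± 0.03, adjusted p = 3.4e-19). Klf4, a monocyte factor, was at 14.4, 15.9 and 18.2 CPM against 5.86, 5.75 and 7.70 CPM (1.28 ± 0.08). For both genes every high-scoring sum exceeded every low-scoring one. Ms4a6c and Ctss, a lysosomal protease gene, differed by 0.47 ± 0.03 and 0.78 ± 0.09. Elane, neutrophil elastase, was at 10319.9, 7914 and 9761 CPM against 13655, 11072 and 11755 CPM (-0.44 ± 0.03) without overlap, and Srgn, the proteoglycan that packs granule proteases, at 1506, 1974 and 2301 CPM against 1993, 2678 and 2866 CPM (-0.44 ± 0.03) with overlap. Prtn3 (proteinase 3) was at 10046, 8038 and 9416 CPM against 10690.2, 9559 and 9808 CPM (-0.19 ± 0.03), also with overlap. The monocyte list summed to 908 to 1121 CPM on the high side and 584 to 748 CPM on the low side, and the azurophil list to 27492 to 33352 CPM and 33835 to 37854 CPM.

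The sides also differed in which lineage list led in a cell, a measure made from the same genes and so no separate evidence. When each cell was given the lineage list that led in it, monocyte genes led in 31.1% to 37.3% of high-scoring cells and 15.4% to 19.7% of low-scoring cells. Azurophil genes led in 18.7% to 26.0% of high-scoring and 36.5% to 38.7% of low-scoring cells. When the sides were chosen within each such group, 5 of 12 monocyte genes were higher (median 0.13) and 3 of 7 azurophil genes lower (median -0.06), while 36 of 48 replication genes were lower (median -0.46). Choosing sides within these groups shrinks the differences of the lineage genes by construction. When they were chosen within 10 classes of UMIs per cell, 12 of 12 monocyte genes were higher (median 0.52) and 6 of 7 azurophil genes lower (median -0.37). In summed counts, fewer cells of a lineage and less of its RNA per cell cannot be told apart.

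Neutrophil genes gave no single direction, with 2 higher, 3 lower and 3 not past of 8 tested (12 listed, Itgb2l at 0 in every sum). Over all genes 22.2% were higher and 20.2% lower, the shares to set beside these counts and the receptor counts that follow. Cebpe, a factor of granule maturation, was at 112, 119.6 and 141 CPM against 168, 173 and 194 CPM (-0.58 ± 0.03) with no overlap. S100a9, a subunit of calprotectin, was at 131, 68.5 and 134 CPM against 136.8, 60.2 and 79.9 CPM (0.24 ± 0.06) with overlap, and without replicate 3 its difference was -0.01. Among receptors, where 6 were higher, 4 lower and 7 not past of 17, Fcgr3, which encodes CD16, was at 31.8, 27.7 and 37.7 CPM against 52.2, 47.3 and 59.4 CPM (-0.77 ± 0.04). The lectin receptor gene Clec4a2, a member of none of the lists, was at 36.1, 26.5 and 37.0 CPM against 69.5, 47.4 and 62.2 CPM (-0.90 ± 0.04). Snhg3, a host gene of small nucleolar RNAs, was at 96.8, 105 and 81.9 CPM against 171, 176 and 139.8 CPM (-0.84 ± 0.03). None of these 3 overlapped between sides.

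Several basophil, mast cell and eosinophil genes had another sign when sides were chosen among cells of like UMI content. Of 10 basophil and mast cell genes, 6 were lower and 1 higher (median -0.32), beside 20.2% lower and 22.2% higher over all genes. With sides chosen within 10 UMI classes 6 were higher and 4 lower (median 0.32), where 2944 of all 13871 genes were higher and 2709 lower. Of 6 eosinophil genes 2 were lower and none higher (median -0.07), which gives no clear direction beside the shares over all genes. Within those classes 5 were higher and none lower (median 0.65). Gzmb, granzyme B, was at 11.7, 12.4 and 11.0 CPM against 32.1, 45.5 and 46.9 CPM (-1.90 ± 0.07), and it was lower under every alternative (-2.12 to -0.90). Cpa3, a mast cell carboxypeptidase, was at 90.4, 112 and 75.5 CPM against 142, 162 and 129 CPM (-0.71 ± 0.04), but differed by 0.16 within 10 UMI classes. Prg2, the eosinophil major basic protein, was at 152, 104 and 114 CPM against 163, 173 and 166 CPM (-0.52 ± 0.05), but differed by 0.39 within those classes. Cpa3 and Prg2 thus had opposite signs under the 2 choices of cells. Along the score the basophil and mast cell list was lowest in the middle, with means of 556 CPM below percentile 30, 338 from 50 to 70 and 581 above 95. Macrophage genes were low on both sides, summing to 21.8 to 26.9 CPM against 36.0 to 37.1 CPM, and Vcam1, an adhesion receptor of marrow macrophages, differed by -1.22 ± 0.08.

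The stem, erythroid and megakaryocyte lists summed higher above percentile 95 of the score than below 30, and the macrophage and T and NK cell lists lower. Of 12 stem and immature progenitor genes, 8 were higher and 2 lower (median 0.39), but without replicate 2 this was 6 and 3 (median 0.17). Over all genes 22.2% were higher and 20.2% lower, the shares to set beside the counts in this paragraph. Cd34, one of the antigens of the gate, was at 115, 143 and 129.7 CPM against 82.2, 96.4 and 96.6 CPM (0.43 ± 0.03), and Hmga2, a chromatin protein of early progenitors, at 21.4, 28.8 and 20.9 CPM against 14.8, 16.0 and 14.2 CPM (0.60 ± 0.06). Neither overlapped between sides. Mecom, a stem cell factor, was lower (-0.63 ± 0.17) at 1.54, 2.42 and 1.29 CPM against 2.49, 2.85 and 2.47 CPM. The stem list did not rise steadily along the score, with means of 557 CPM below percentile 30, 418 from 50 to 70 and 554 from 85 to 95. Only the band above 95 stood higher, at 905, 1079 and 757 CPM, against 575, 550 and 547 CPM below 30. The erythroid list had means of 13.2 CPM below 30, 16.8 from 85 to 95 and 45.6 above 95. Erythroid genes were higher in 4 of the 4 tested (9 listed) and megakaryocyte genes in 3 of 6 (7 listed), but without replicate 2 in 2 of 4 and 2 of 5. Car1, a carbonic anhydrase of red cell precursors, was at 3.51, 13.6 and 1.89 CPM against 0.766, 2.47 and 0.633 CPM (2.21 ± 0.15). Its libraries overlapped, and replicate 2 was the highest on both sides. The T and NK cell list summed to a mean of 732 CPM below percentile 30 and 418 above 95, and the macrophage list to 36.6 and 22.5 CPM. Of the 2 T and NK cell genes tested, Nkg7 and Cd3d, 1 was lower. These 2 held nearly all of the list sum, 756.6 of 757.2 CPM on the low side of replicate 1. Gzma and Ncr1 were at 0 in every sum, so the list sum alone does not show T or NK cells.

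MHC class II genes differed by as much as many mitotic genes, and their UMIs lay in few cells. In the dendritic cell and MHC class II list, 4 genes were higher and 1, Bst2, lower of 5 tested (8 listed). Bst2 was at a mean of 65.5 CPM below percentile 30 and 56.7 CPM above 95. This list led in 3.66% to 4.97% of high-scoring cells and 5.17% to 6.62% of low-scoring cells. Cd74, the invariant chain, was at 25.7, 31.0 and 26.0 CPM against 14.9, 5.78 and 1.03 CPM (2.01 ± 0.20, adjusted p = 1.6e-11), and H2-Aa, an MHC class II chain, at 11.2, 16.99 and 18.0 CPM against 5.98, 3.41 and 2.07 CPM (2.01 ± 0.15). The high sums were alike and the low sums were not. In the band above percentile 95 Cd74 reached 78.2 ± 17.6 CPM (SD, n = 3), against 7.16 ± 3.43 from 85 to 95. In all, 24 of 4012 high-scoring cells held 5 or more Cd74 UMIs (7, 8 and 9 cells in replicates 1, 2 and 3), and they held 94.2% of its UMIs on that side. Among 8026 low-scoring cells there were 3, with 77.8%. A test on summed counts does not see how UMIs are spread over cells. Siglech, a marker of plasmacytoid dendritic cells, was at 0 in every high-scoring and low-scoring sum. For Car1, 24 high-scoring cells held 76.3% of the UMIs. The minimum of 5 UMIs and these genes were chosen after their values were seen.

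Lineage transcription factors changed in both directions, 11 higher, 9 lower and 8 not past of 28 tested (median 0.02), beside 22.2% and 20.2% over all genes. Id2, an inhibitor of E proteins, was at 4.28, 6.80 and 6.62 CPM against 10.2, 16.2 and 14.5 CPM (-1.27 ± 0.08), and Tcf4, an E protein, at 46.0, 63.7 and 60.5 CPM against 31.6, 42.6 and 44.7 CPM (0.46 ± 0.04). Both were apart between sides. Myb, which keeps progenitors immature, differed by -0.27 ± 0.03, Spi1 (PU.1) by -0.09 ± 0.03, Cebpd by -0.34 ± 0.04 and Gfi1 by -0.32 ± 0.07. For these 4 the libraries of both sides overlapped, and the calls come from pairs within libraries. Gata2 differed by -0.33 ± 0.06, but by 0.48 with sides chosen within 10 UMI classes and by 0.06 within lineage groups.

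Genes of growth and metabolism were slightly lower in high-scoring cells as a share of all UMIs. Of 81 ribosomal protein genes tested, 71 were lower and 1 higher (median -0.13), of 12 glycolysis genes 11 were lower and 1 higher (median -0.20), and of 92 oxidative phosphorylation genes 52 were lower and 9 higher (median -0.10), or 49 and 3 without replicate 1. Rps12 was at 12260.4, 11392 and 11585 CPM against 12672, 12498 and 12313 CPM (-0.15 ± 0.03). Gpi1, a glycolytic isomerase, was at 703, 597 and 653 CPM against 886, 713 and 809 CPM (-0.36 ± 0.03), and Gapdh, the glyceraldehyde phosphate dehydrogenase, at 2609, 2443 and 2543 CPM against 2897, 2669.8 and 2741 CPM (-0.19 ± 0.03). None of these overlapped, and the gaps were small beside those of the mitotic genes. These are shares of RNA in cells whose median UMIs were 1.48 times those of the low side. With scaling by total UMIs, 63 ribosomal genes were lower and 3 higher (median -0.07). Ribosome biogenesis (0 higher and 13 lower of 20) and endoplasmic reticulum folding genes (0 and 10 of 14) leaned the same way. Proteasome genes did so as well (1 and 15 of 38), but with scaling by total UMIs 12 were higher and 8 lower. Mitochondrially encoded genes were 3 higher and 2 lower of 26, 8 and 1 with that scaling, 0 and 2 without replicate 1, and 7 and 2 without replicate 2. In the immediate early and heat shock list 4 were higher and 6 lower of 15 (median -0.13), beside 22.2% and 20.2% over all genes. With sides chosen within 10 UMI classes, 8 were higher and 2 lower (median 0.17). Hspa1a, a heat shock gene, was at 1.15, 3.78 and 9.89 CPM against 1.15, 1.72 and 4.63 CPM, with libraries that differed more than the sides.

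High-scoring cells were also compared with the 14721 middle cells, using the same high-scoring sums. Of 14829 genes tested, 2828 (19.1%) were higher and 2699 (18.2%) lower, 474 and 316 of them over 1.5-fold, with a median of 0.01 over all genes. With scaling by total UMIs 4816 were higher and 1498 lower, and the median moved to 0.10. Of 48 replication genes 47 fell and none rose (median -0.58), mitotic kinases higher in 13 of 15 and lower in 1 (median 0.71), and spindle genes higher in 32 of 33 (median 1.03). The largest rise was in Plk1, at 68.5, 66.6 and 64.8 CPM against 21.0, 22.8 and 20.5 CPM in middle cells (1.54 ± 0.04, adjusted p = 3.4e-24). Hmmr, Cdkn3, Cenpa and Kif23 followed with 1.47, 1.32, 1.302 and 1.27. The largest fall among the named genes was in Uhrf1, at 23.2, 28.3 and 29.8 CPM against 42.8, 57.5 and 64.5 CPM in middle cells (-1.11 ± 0.04, adjusted p = 4.9e-20), followed by Clec4a2 (-0.95 ± 0.04), Mcm4 (-0.95 ± 0.03) and Hells (-0.93 ± 0.03). Histones were higher in 30 of 62 and lower in 4 (median 0.18). All 12 monocyte genes were higher (median 0.32), 8 of 10 neutrophil genes lower (median -0.54), 10 of 12 stem genes higher (median 0.55), and 6 of 10 basophil and mast cell genes higher with 3 lower (median 0.40).

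The same percentiles were applied to CMP and LMPP, which have 1 library each, so the values carry counting error only and no test. Their high sides held 1096 and 1204 cells. Hmmr was at 165 CPM on the high side and 3.57 CPM on the low side of CMP, and at 216 and 4.56 CPM in LMPP. Plk1 was at 72.7 against 2.59 CPM in CMP and 78.2 against 2.23 CPM in LMPP. For both genes the low sides of CMP and LMPP were below every low side of GMP. Ung fell in these populations too, at 9.76 against 47.9 CPM in CMP and 6.56 against 28.9 CPM in LMPP.

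Replication genes as a list differed in direction between the libraries. In GMP replicates 1, 2 and 3, 16, 19 and 19 of 48 were over 1.5-fold lower on the high side, where 7.51%, 5.24% and 6.91% of all genes compared were, and 1, 0 and 0 were over 1.5-fold higher, against 8.67%, 8.71% and 7.03%. In CMP 22 were over 1.5-fold higher and 1 lower, against 8.26% and 12.2% of all genes compared. In LMPP 27 were higher and 1 lower, against 9.22% and 12.8%. The list summed to 4242 CPM on the high side, 4700 in the middle and 3176 on the low side of CMP, and to 4350, 5027 and 2782 CPM in LMPP. In GMP the sums were 3124 to 3208 CPM, 4357 to 4599 CPM and 4120 to 4401 CPM in the same order. Middle cells were the highest in all 5 libraries, whereas the lowest were low-scoring cells in CMP and LMPP and high-scoring cells in GMP. These sides were set by percentile and not by a common score, so a side holds unlike scores in different populations. Whether the populations differ could not be tested with 1 library each. Among lineage genes, Klf4 was lower on the high side of CMP (11.6 against 17.3 CPM) and LMPP (81.3 against 189 CPM), and Irf8 was higher (163 against 98.0 CPM, and 34.3 against 25.5 CPM). The stem list was lower on the high side of CMP (2163 against 3757 CPM) and LMPP (3732 against 5853 CPM), unlike in GMP. The monocyte list was higher in CMP (366 against 234 CPM) and lower in LMPP (206 against 304 CPM). The azurophil list was lower in both (3626 against 4162 CPM, and 2256 against 3124 CPM), as in GMP.

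**Figure D5:**
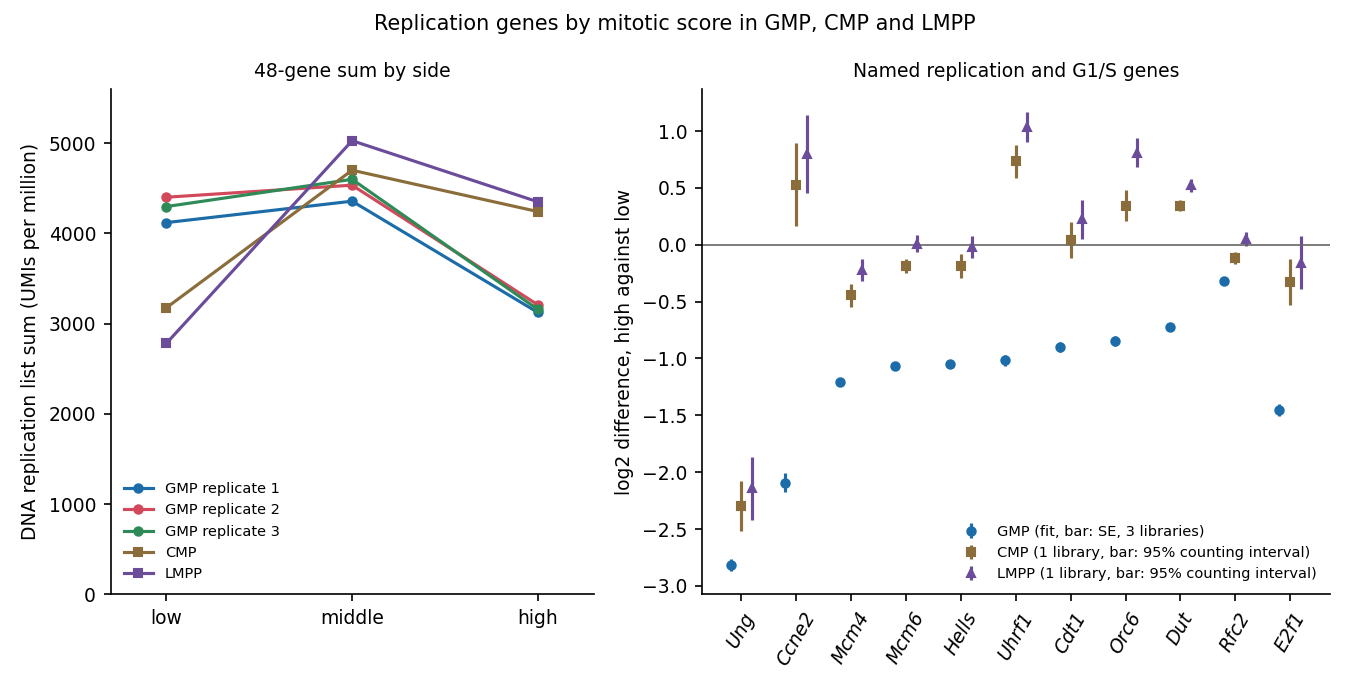
Left, CPM summed over 48 replication genes in low, middle and high cells of the 5 libraries. Right, log2 difference between high and low for 11 genes, with SE over 3 libraries for GMP and 95% counting intervals for the single CMP and LMPP libraries. The 11 GMP points lie below 0, and Uhrf1, Orc6, Dut and Ccne2 lie above 0 in CMP and LMPP.

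The share of high-scoring cells was set by the rule, so populations were set side by side at a common score instead. Every cell was thinned to 4000 UMIs, and the border was 15.8 per 10000, the mean of the borders of the top 15% in the thinned GMP libraries. Thinned scores move in steps of 2.5, so no cell lies at this border and the shares depend on the step above it. In GMP 12.8%, 17.1% and 13.4% of cells passed it (replicates 1, 2 and 3), in CMP 13.5% (95% exact Clopper-Pearson interval 12.7% to 14.4%) and in LMPP 21.0% (20.1% to 21.9%). LMPP lay above all GMP libraries and CMP within their range. The LMPP library also held much neutrophil RNA. Its neutrophil list summed to 2836 CPM in high, 2329 in middle and 887 in low cells, against 306 to 448 CPM on the GMP high sides. The part of cells with this RNA in the LMPP values was not tested. A thinned score of 0 was found in 22.7%, 14.98% and 19.3% of GMP cells, 41.0% of CMP cells (39.8% to 42.2%) and 34.7% of LMPP cells (33.6% to 35.7%). Thinning left out 633, 373 and 236 GMP cells, 320 CMP cells and 311 LMPP cells. Unthinned, 9.10%, 4.43% and 4.29% of GMP cells had a score of 0, and 23.2% of CMP and 19.8% of LMPP cells. At either depth, cells with no UMI of the score genes were a smaller share of each GMP library than of CMP or LMPP. A count of 0 depends on depth and does not show that a cell lacks the RNA. The intervals cover counting error only.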

How the data were processed

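Single-cell RNA of 3 GMP, 1 CMP and 1 LMPP library was deposited as matrices of raw UMI counts per gene and barcode, whole numbers without normalization. Per the submitters' processing notes, Cell Ranger 3.1.0, Seurat 3.1.1 and the mm10 build were used, whereas the file headers name cellranger 6.1.1. How the deposited barcodes were chosen is not given in the sources used here.

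Barcodes with at least 500 genes, at least 1000 UMIs and at most 10% mitochondrial UMIs were kept, which left 9123, 9799 and 7837 GMP cells and removed 387, 194 and 184. Doublets were called by scrublet in scanpy 1.11.5 at 0.8% per 1000 barcodes and kept. The score, the sides and the 32 gene lists were chosen with earlier results of these data known. Counts were summed per library and side, filtered with filterByExpr, scaled by TMM factors and fitted with edgeR 4.0.16 (quasi-likelihood test, R 4.3.3), with the library as a block and Benjamini-Hochberg adjustment at 0.05. The fit of 6 sums had 2 residual degrees of freedom. Both sides of a pair came from the same library, and their deviations from the side means correlated across genes at 0.63, 0.43 and 0.50. Cells of a library are not replicates. Log2 differences come from the fit, and CPM values are counts scaled to a common total of 1000000 per sum without TMM factors.

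Genes were named by rule: the 10 largest changes each way past the threshold, without overlap between sides and with at least 50 CPM on the higher side, 10 more higher genes outside the 9 cell cycle lists, and up to 4 members of each list (the largest changes and highest levels). Against middle cells these were 5 each way. A gene that the rule takes is not reported here. Passing members of the transcription factor and cyclin-inhibitor lists, and members in counts of 5 or fewer, may also be named. Zwint, Hist1h2bc, Rrm1, Rfc5, Tk1, Tyms, Siglech, Itgb2l, Gzma and Ncr1 were named after their values were seen.

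On simulated data the fit recovered 100% of 1.5-fold changes in the high against low comparison and called 6 of 13509 unchanged genes. Only 100 genes were changed at each fold, all above a minimum level, and every gene had the same spread of 2.69%. The real data had far more calls and genes at lower levels, so this recovery does not give their power. Alternatives were DESeq2 1.42.0, other scaling, no filter, no block, leaving out each replicate, doublets removed, other widths of the sides, thinned cells, and sides chosen within 10 UMI classes or within lineage groups.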

Additional observations from a re-analysis of the deposited data

Results flagged for a closer look

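Among genes named for the largest changes, a few of DNA replication and origin licensing were higher on the high-scoring side of CMP or LMPP. These genes were lower on the high-scoring side of all 3 GMP libraries. Of the 48 replication genes, 22 in CMP and 27 in LMPP were over 1.5-fold higher on the high side, against 8.26% and 9.22% of all genes compared. In CMP the log2 difference was 0.73 for Uhrf1 (95% counting interval 0.59 to 0.88) and 0.35 for Orc6 (0.21 to 0.48). In LMPP it was 1.03 for Uhrf1 (0.90 to 1.17), 0.22 for Cdt1 (0.05 to 0.39) and 0.81 for Orc6 (0.69 to 0.94). In GMP the same genes differed by -1.01 ± 0.05 (Uhrf1), -0.90 ± 0.05 (Cdt1) and -0.85 ± 0.05 (Orc6). The difference between populations was not tested, since CMP and LMPP have 1 library each. The low-scoring side of CMP and LMPP held more cells with a score of 0, which were 23.2% and 19.8% of those libraries and 4.29% to 9.10% of the GMP libraries, and their part in the result was not tested.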

How the results depend on the processing

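Against low-scoring cells, 3035 genes were higher and 2765 lower. The DESeq2 Wald test gave 1227 and 1393, the fit with no replicate block 625 and 422, and cells thinned to 4000 UMIs 1464 and 1596. Against middle cells, 2828 were higher and 2699 lower. There the Wald test gave 1119 and 1730, no replicate block 223 and 157, thinned cells 992 and 1211, and scaling by total UMIs 4816 and 1498. The other alternatives kept each count within 1.5 times. Leaving out 1 replicate gave 2476 to 2632 higher and 2333 to 2498 lower against low-scoring cells, and 2155 to 2350 and 2244 to 2344 against middle cells. Of the 161 named genes, 90 stayed on the same side of the threshold without the block and 71 no longer passed. By the Wald test 135 stayed and 23 no longer passed, and the rest had no adjusted p by that test. No gene past the threshold in either fit changed sign. S100a9 ranged from -0.014 to 0.42 when 1 replicate was left out, and was -0.014 without replicate 3. With sides chosen within 10 UMI classes, the log2 difference changed sign for Prg2 (0.39), Prg3 (0.345), Cpa3 (0.16), Sox4 (0.23), Csf2rb2 (0.013), Jun (0.18), Ncl (-0.12), Calr (-0.15), mt-Cytb (0.027), Gata2 (0.48) and Btg2 (0.16). Within lineage groups it did so for Nkg7 (0.052) and Gata2 (0.056). The cause of these changes was not tested. With 3 libraries and 2 residual degrees of freedom, the spread of single genes is borrowed across genes. Genes at a few CPM rest on few UMIs and often few cells.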
